A study of Mus musculus with 22 samples.

Results

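A set of 10 airway secretory genes was followed through sorted lung epithelial cells (ECs) of wildtype (WT), AhR-/- and CYP1B1-/- mice, at steady state and after house dust mite extract (HDM). They are 3 club cell secretory genes (Scgb1a1, Scgb3a1, Scgb3a2), 5 goblet cell genes (Muc5ac, Clca1, Agr2, Spdef, Foxa3) and 2 genes that both kinds of secretory cell can express (Muc5b, Bpifa1). They were chosen by name and found by Ensembl identifier, and are 10 of the 21716 protein-coding genes in the count tables. The paper heads its isolation protocol as one for alveolar epithelial cells. Dispase and agarose were infused through the trachea, and intact lung lobes were cut away and digested. ECs were sorted from them as live CD45-CD31-EpCAM+ cells. How much airway was collected along with the alveoli was not given. WT mice were C57BL/6, and both knockouts were germline and had been backcrossed to C57BL/6. Mice of both sexes older than 7 weeks were used. The steady-state groups had received no allergen, with 4 WT, 3 AhR-/- and 3 CYP1B1-/- libraries. In the HDM groups, mice had been sensitized and then challenged intranasally with extract of the mite Dermatophagoides farinae, with 4 libraries of each genotype. AhR is a ligand-activated transcription factor, and CYP1B1 is one of the enzymes it induces. The comparison asks whether loss of either changes what ECs express before and after allergen.

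Club cells are the secretory cells of the mouse bronchiole. They release secretoglobins, small proteins found in airway lining fluid, of which Scgb1a1 is the classic club cell product. Goblet cells make the gel-forming mucin Muc5ac and are scarce in the healthy mouse airway. During type 2 inflammation, IL-13 acts on airway epithelium through the IL-4 receptor alpha chain and STAT6. Secretory cells then take up a mucous program that includes the transcription factors Spdef and Foxa3, the secreted protein Clca1 and the endoplasmic reticulum chaperone Agr2, which is needed for mucin processing. Muc5b is the gel-forming mucin that club cells also make at rest, and Bpifa1 is a secreted antimicrobial protein of the upper and large airways.

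Spread between libraries was wide after HDM, which bears on every value below. Of all counts of a library, 6 predicted protein-coding genes such as Gm10800 took 11.6% to 35.6% at steady state and 0.0106% to 88.2% after HDM. Outside them, 7217513 to 14117964 protein-coding counts remained per library at steady state and 1180418 to 16444116 after HDM. Levels are given as CPM (counts of a gene per 1000000 counts of the library, its size scaled by TMM over all 22 libraries), on which 3 counts were worth 0.138 to 0.213 CPM at steady state and 0.107 to 1.37 after HDM. Counts of the targeted genes did not fall under their own labels. Ahr was counted at 12.8 to 25.5 CPM in the HDM libraries labelled AhR-/- against 9.62 to 20.1 in WT, and at 15.45 to 20.12 against 6.39 to 12.3 at steady state. Cyp1b1 was at 4.98 to 13.6 CPM in the HDM libraries labelled CYP1B1-/- against 0.897 to 2.31 in WT, and at 3.62 to 5.89 against 0.644 to 1.91 at steady state. Cyp1b1 was thus higher under its label in both states, as was Ahr at steady state. Where a deletion removes only part of a gene, such counts say nothing of function. Each table holds 1 state and is named as a run of its own, so state and run cannot be told apart. Y-linked genes were counted at 66.6 CPM or more in all steady-state libraries, but after HDM only in AhR-/- replicates 3 and 4 (172.5 and 190.9 CPM, at most 0.258 in the other 10). In WT and CYP1B1-/-, state and the presence of Y-linked reads, a sign of male mice, therefore cannot be told apart either. The labels do not say which mice a library came from, so p-values measure the spread between these samples.

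At steady state, Scgb1a1 reads far outnumbered those of the 5 goblet genes, each of which lay below 5 CPM in every library. In bulk samples such as these, fewer cells of a type and less RNA per cell cannot be told apart. Scgb1a1 (ENSMUSG00000024653, chromosome 19, 9083636 to 9087958 of mm10) was counted at 2303, 2521, 2267 and 1040 CPM in WT replicates 1 to 4. The libraries labelled AhR-/- held 3318, 3058 and 1389 CPM, and those labelled CYP1B1-/- held 307, 3977 and 3366. CYP1B1-/- replicate 2 lay far below all others, and it was also lowest of the steady-state libraries for Scgb3a1 (1.77 CPM) and Scgb3a2 (9.79 CPM). Scgb1a1 made up 89.2% (95% Wilson interval 88.3 to 90.0, counting error only) to 96.0% (95.9 to 96.2) of the reads of the 10 genes. Per kilobase of exon, Scgb1a1 had the highest level of the 10 genes in every group, at 4270 CPM per kb in WT.

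Other secretoglobins were lower. Scgb3a2 was counted at 48.7 to 94.7 CPM in WT, 56.5 to 120.3 in AhR-/- and 9.79 to 173 in CYP1B1-/-. Within a library, its reads stood in a narrow ratio to those of Scgb1a1, 28.0 to 46.9 per 1000 over all 10 steady-state libraries. Scgb3a1 was counted at 7.64 to 20.3, 6.41 to 13.9 and 1.77 to 38.8 CPM in the same order of genotypes. Bpifa1 ranged from 14.6 to 90.8 CPM over the 10 libraries.

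Goblet genes sat at about 1 CPM or lower. Clca1, which was to show the largest difference after HDM, was counted at 0.955, 1.05, 1.02 and 0.875 CPM in WT, 15 to 19 reads per library. It reached 4.43 CPM in AhR-/- replicate 1, against 0.862 and 1.11 in replicates 3 and 4, and lay at 0.304 to 1.28 in CYP1B1-/-. Muc5ac was at 0.618 to 0.895 CPM in WT and at 3.19 in CYP1B1-/- replicate 2, the library that was low in secretoglobins. Agr2 ranged from 0.284 to 1.49 CPM, Foxa3 from 0.304 to 1.02 and Spdef from 0.0460 to 0.556 (1 to 9 reads). Muc5b was at 1.36 to 4.89 CPM, so it exceeded Muc5ac in reads in every library, with 13.2 to 65.2 Muc5ac reads per 100 of Muc5b.

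Genotype made no difference that passed the test to these genes at steady state. The filter on low counts left 9 of the 10, all but Spdef. By edgeR's quasi-likelihood test with a Benjamini-Hochberg adjusted p of at most 0.05, none of the 9 passed between AhR-/- and WT (0.0% of all genes tested), between CYP1B1-/- and WT (0.0129%) or between the knockouts (0.00644%). The likelihood ratio test of edgeR, DESeq2 and limma voom also called none. At an unadjusted p under 0.05, 0, 0 and 1 of the 9 differed in these comparisons, where 1.69%, 5.79% and 4.23% of all genes did, the 1 being Clca1. Its log2 difference between AhR-/- and CYP1B1-/- was 1.55 (95% interval 0.27 to 2.84, adjusted p = 0.936). Intervals were wide, from -0.92 to 1.54 for Scgb1a1 between AhR-/- and WT.

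**Figure D1:**
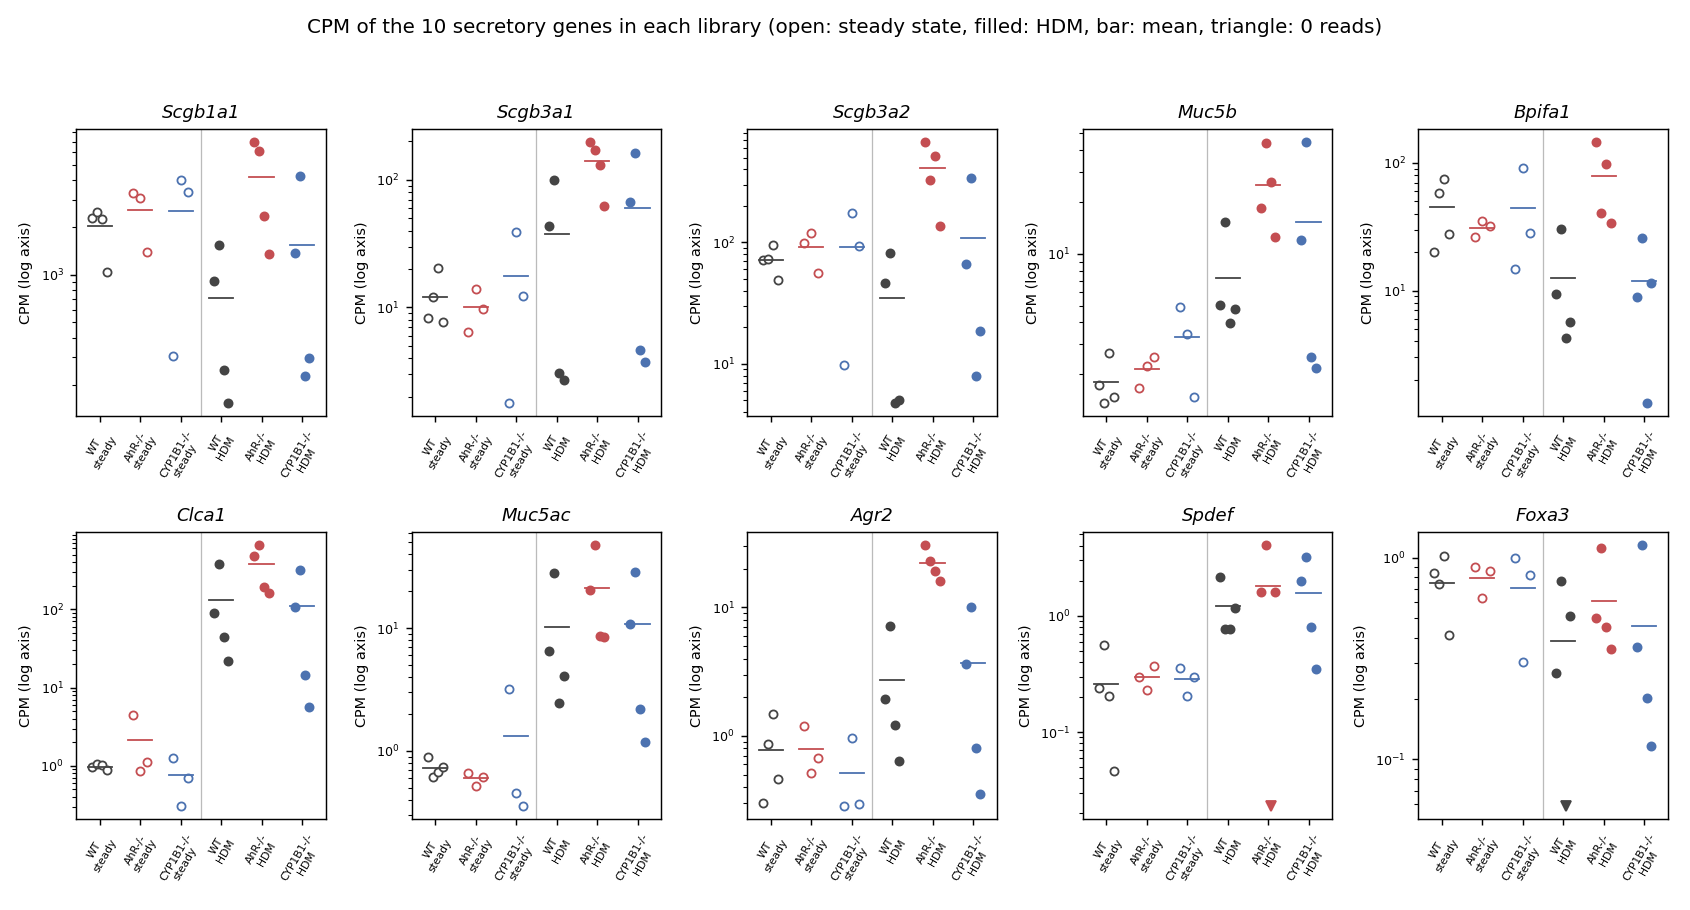
CPM of each gene in every library on a logarithmic axis, with open points at steady state, filled points after HDM, bars at group means and triangles for 0 reads. Clca1 lay at 0.304 to 4.43 CPM at steady state and at 5.68 to 660 after HDM, while Scgb1a1 overlapped between the states in each genotype.

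After HDM, the goblet genes Clca1, Muc5ac and Spdef rose in all 3 genotypes, and Clca1 had the largest log2 fold change of the 10 genes in each. Clca1 (ENSMUSG00000028255, chromosome 3, 145003817 to 145032776), a secreted protein of mucous cells, was counted at 89.0, 376, 44.2 and 21.9 CPM in WT replicates 1 to 4. AhR-/- libraries held 485, 660, 192 and 164 CPM, and CYP1B1-/- libraries 108, 318, 14.3 and 5.68. Every HDM library was above every steady-state library of any genotype. The log2 fold change against steady state was 7.08 (SE 1.20, adjusted p = 9.07e-05) in WT, 7.45 (SE 1.37, adjusted p = 0.00133) in AhR-/- and 7.20 (SE 1.39, adjusted p = 0.000365) in CYP1B1-/-, all from one edgeR fit of the 22 libraries. CYP1B1-/- replicates 3 and 4 were the lowest of the 12 HDM libraries.

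Gel-forming mucins rose with it. Muc5ac (ENSMUSG00000037974, chromosome 7, 141788972 to 141819231) was counted at 6.46, 28.2, 2.44 and 4.10 CPM in WT, at 20.5, 47.4, 8.65 and 8.48 in AhR-/- and at 10.8, 28.8, 2.21 and 1.17 in CYP1B1-/-. In WT and AhR-/-, all HDM libraries were above all steady-state libraries, while CYP1B1-/- replicates 3 and 4 fell below steady-state replicate 2 of that genotype. The log2 fold changes were 3.73 (SE 0.97), 5.17 (SE 1.15) and 2.95 (SE 1.04). Muc5b, its neighbor on chromosome 7 (141839070 to 141873084), rose by 1.96 (SE 0.73), 3.55 (SE 0.84) and 2.15 (SE 0.79) on the log2 scale, reaching 3.96 to 15.2 CPM in WT, 12.5 to 43.7 in AhR-/- and 2.17 to 44.4 in CYP1B1-/-. Muc5ac reads were now 33.3 to 185 per 100 of Muc5b.

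Spdef, the transcription factor of goblet cell differentiation, also rose in each genotype, by 2.28 (SE 0.76), 2.69 (SE 0.84) and 2.30 (SE 0.86) on the log2 scale. Its counts were few, 3 to 48 in WT, 0 to 47 in AhR-/- and 6 to 16 in CYP1B1-/-, with no read in AhR-/- replicate 3, the shallowest library outside the predicted genes, where a count of 0 allows up to 1.37 CPM. Foxa3, a forkhead factor of the same program, did not pass the test in any genotype, with log2 differences of -1.02 (SE 0.70), -0.31 (SE 0.72) and -1.01 (SE 0.78). It was counted at 0 to 14 reads per HDM library, and with library sizes from pan-epithelial genes its values were 0.03, 0.40 and 0.39. Another of the 10 alternative settings called Foxa3 lower in WT, where values reached -2. Agr2 rose in AhR-/- (4.79, SE 0.95, adjusted p = 0.00207) and CYP1B1-/- (2.56, SE 0.95, adjusted p = 0.0410), and was 1.65 higher (SE 0.83, adjusted p = 0.124) in WT. Its rise in WT was called under 2 of 10 alternative settings (values from 0.76 to 2.69).

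Of the secretoglobins, Scgb3a1 in AhR-/- was the gene and genotype that passed the test between states. Scgb1a1 was counted after HDM at 914, 1556, 248 and 153 CPM in WT, at 6943, 6075, 2358 and 1360 in AhR-/- and at 1367, 4261, 228 and 297 in CYP1B1-/-. Its log2 differences from steady state were -1.50 (SE 0.87), 0.69 (SE 0.93) and -0.73 (SE 0.91), none of which passed (adjusted p = 0.181, 0.647 and 0.618). Under 2 of 11 alternative settings, Scgb1a1 was called lower in WT, with values over the 11 from -2.73 to -0.55. With library sizes from pan-epithelial genes the value in CYP1B1-/- was 0.36, and with voom the value in AhR-/- was -0.35. Scgb3a2 differed by -1.07, 2.16 and 0.22 (-1.02 in CYP1B1-/- with voom) and did not pass either, though 1 of 11 alternative settings called it lower in WT (values from -3.09 to -0.11). Scgb3a1 rose in AhR-/-, to 197, 173, 132 and 61.8 CPM (log2 3.82, SE 1.30, adjusted p = 0.0413), and its log2 differences of 1.61 in WT (-0.97 with voom) and 1.74 in CYP1B1-/- did not pass. Bpifa1 fell by 1.90 on the log2 scale in WT (SE 0.75, adjusted p = 0.0484) and differed by 1.35 in AhR-/- (adjusted p = 0.240) and by -1.96 in CYP1B1-/- (adjusted p = 0.0603).

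Counted over the 10 genes, 4 rose and 1 fell in WT, where 19.1% and 19.4% of all genes tested did. In AhR-/- 6 rose (10.6% of all genes) and none fell (10.1%), and in CYP1B1-/- 5 rose (15.5%) and none fell (17.9%). Of the goblet genes, 3 of 5 rose in WT and 4 of 5 in either knockout. The calls of Clca1 in all genotypes, of Muc5ac in WT and AhR-/- and of Agr2 and Muc5b in AhR-/- were kept in every refit that could test them; with at least 10 counts required in every library, all 5 goblet genes could not be tested. The other calls were lost in some refits. Without CYP1B1-/- HDM replicate 2, the log2 values in CYP1B1-/- were 0.86 for Muc5b, 1.90 for Muc5ac, 1.50 for Agr2 and 1.93 for Spdef, and none passed. Calls in that genotype were also lost without HDM replicate 1 (Agr2, Spdef) and without steady-state replicate 2 (Agr2, Spdef), 3 (Muc5ac, Muc5b, Spdef) or 4 (all 4 genes). In WT, Muc5b was lost without HDM replicate 2 (1.43, adjusted p = 0.141) or without steady-state replicate 1, 2 or 4, and Spdef without HDM replicate 1 (1.82, adjusted p = 0.0891) or without steady-state replicate 3 or 4. In AhR-/-, Scgb3a1 was lost without HDM replicate 1 or 2 or any steady-state library (adjusted p from 0.0599 to 0.138), and Spdef without HDM replicate 2 or any steady-state library. The call of Bpifa1 in WT was lost without HDM replicate 1, 3 or 4 or steady-state replicate 2 or 3, was kept in 8 of 19 refits and had a log2 value of -0.83 with library sizes set by pan-epithelial genes, which were 784 to 1441 CPM in sum after HDM against 1756 to 3249 at steady state.

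Ratios within a library do not depend on library scaling. Clca1 reads per 1000 Scgb1a1 reads ranged from 0.0765 to 4.16 at steady state. In HDM libraries the same ratio was 97.4 to 242 in WT, 69.8 to 120.5 in AhR-/- and 19.2 to 79.2 in CYP1B1-/-, so the states were apart in every genotype. WT and CYP1B1-/- libraries did not overlap in this ratio, and AhR-/- libraries overlapped with both. Scgb1a1 made up 70.4% (69.4 to 71.5) to 87.1% (86.2 to 88.0) of the reads of the 10 genes after HDM. Scgb3a1 reads per 1000 of Scgb1a1 were 1.93 to 9.75 at steady state and 12.3 to 64.5 after HDM. These ratios were chosen with the levels known and are given as values with no test.

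**Figure D2:**
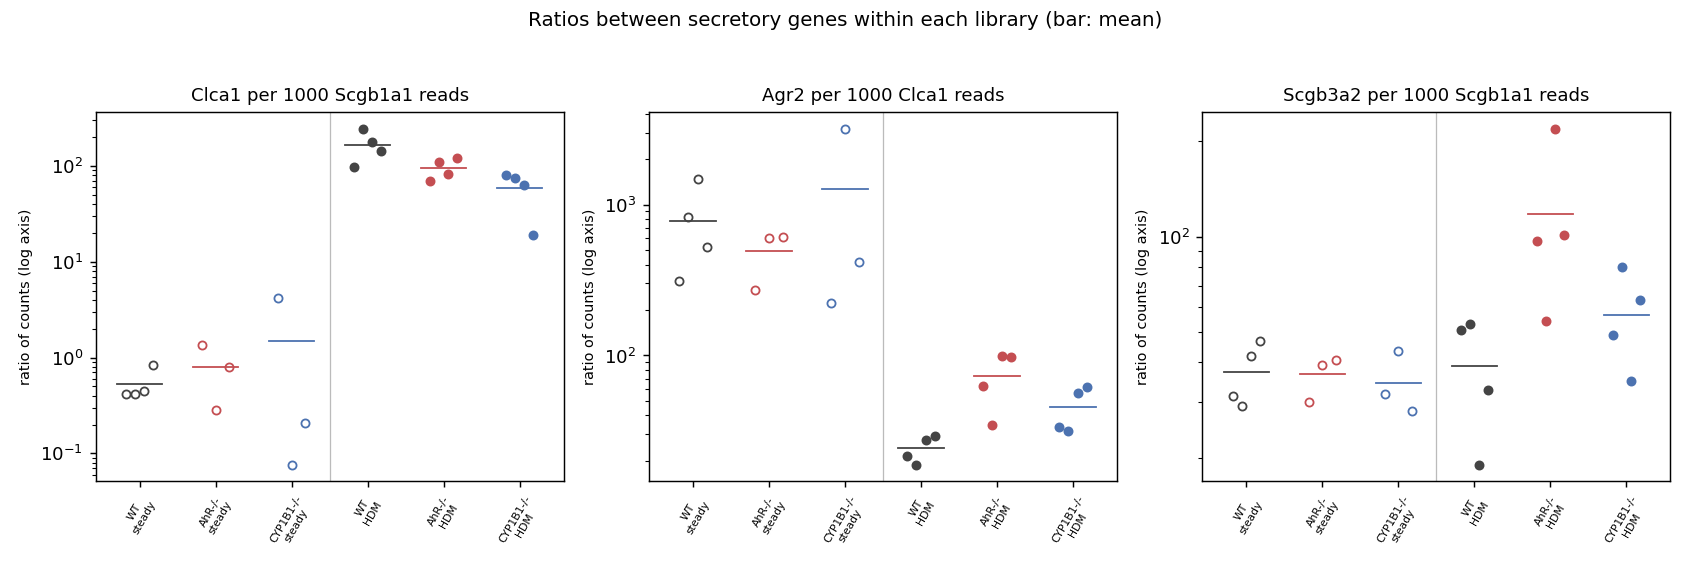
Ratios of counts in each library on a logarithmic axis, with bars at group means. Clca1 per 1000 Scgb1a1 reads was at most 4.16 at steady state and at least 19.2 after HDM, and Agr2 per 1000 Clca1 reads was 34.5 to 99.8 in AhR-/- and 18.9 to 29.3 in WT after HDM.

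Between AhR-/- and WT after HDM, Agr2 was the gene of the 10 that passed the test. Agr2 (ENSMUSG00000020581, chromosome 12, 35992907 to 36004087), the mucin chaperone, was counted at 30.4, 22.8, 19.1 and 15.9 CPM in the libraries labelled AhR-/-. WT libraries held 1.93, 7.11, 1.22 and 0.641 CPM, and CYP1B1-/- libraries 3.61, 10.1, 0.805 and 0.351. All AhR-/- libraries were above all others. The log2 fold change against WT was 3.15 (SE 0.98, adjusted p = 0.0405), and 1 of the 9 genes tested passed, where 9.22% of all genes tested were higher and 12.9% lower. Of the 8 fits without a single library, 6 gave adjusted p between 0.0773 and 0.117 (those without AhR-/- replicate 1, 3 or 4 or WT replicate 1, 3 or 4), and the fit without both AhR-/- libraries with Y-linked reads gave 3.39 and 0.202. Agr2 lies 458 kb from Ahr on the same chromosome, so genotype and linkage to the targeted gene cannot be told apart. Of the 6 other genes tested within 1 Mb, Snx13 differed by 1.07 (adjusted p = 0.0491), Tspan13 by 0.77 (adjusted p = 0.170), Bzw2 by -1.57 (adjusted p = 0.0287), Ankmy2 by -0.76 (adjusted p = 0.0496), Ahr by 0.53 (adjusted p = 0.196) and Ispd by -0.12 (adjusted p = 0.867).

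The 200 bases upstream of 3 of the genes that rose in AhR-/- after HDM are shown to let the reader see what lies before them, from 50 bases before the annotated start (RefSeq, GRCm38.p6, 5′ to 3′ on the strand of the gene). They are given for Agr2 (chr12:35992675-35992874, plus strand), Spdef (chr17:27729002-27729201, minus strand) and Scgb3a1 (chr11:49663345-49663544, plus strand), and capitals mark hits of the motifs named next.
Agr2: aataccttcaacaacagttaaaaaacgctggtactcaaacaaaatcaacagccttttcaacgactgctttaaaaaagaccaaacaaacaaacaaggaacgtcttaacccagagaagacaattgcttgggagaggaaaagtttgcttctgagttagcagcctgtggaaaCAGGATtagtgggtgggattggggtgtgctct
Spdef: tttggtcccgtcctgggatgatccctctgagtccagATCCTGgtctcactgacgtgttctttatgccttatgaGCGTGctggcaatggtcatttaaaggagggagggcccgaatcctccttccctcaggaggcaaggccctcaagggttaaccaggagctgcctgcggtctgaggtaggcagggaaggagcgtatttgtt
Scgb3a1: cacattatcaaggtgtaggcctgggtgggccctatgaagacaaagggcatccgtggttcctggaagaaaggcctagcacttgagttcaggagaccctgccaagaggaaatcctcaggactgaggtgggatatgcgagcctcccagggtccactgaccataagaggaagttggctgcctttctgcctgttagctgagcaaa
Promoters of 5 of the 10 genes were matched, these and those of Foxa3 and Bpifa1. Both strands were searched for the AhR core GCGTG, the STAT6 site (TTC, any 4 bases, GAA), the FOXA site TGTTTAC and the ETS site CAGGAT of the kind Spdef binds. Agr2 held CAGGAT, and Spdef held that motif and GCGTG, with no overlap between hits. Scgb3a1 and Bpifa1 held none of the 4, and Foxa3 held GCGTG. Of 32851 promoters, 22.6% held GCGTG in the same 200 bases, 4.78% the STAT6 site, 2.58% the FOXA site and 11.1% CAGGAT. A match is a description of letters and no evidence of binding.

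The other 8 genes tested did not pass between AhR-/- and WT after HDM, though some did under other settings. Scgb3a2 was counted at 671, 327, 516 and 138 CPM against 46.2, 82.6, 4.72 and 5.00 in WT, with no overlap, a log2 difference of 3.49 (SE 1.25, adjusted p = 0.0609). Bpifa1 was counted at 145, 40.6, 97.4 and 34.1 CPM against 9.42, 30.5, 4.26 and 5.71, also with no overlap, a log2 difference of 2.58 (SE 0.88, adjusted p = 0.0527). With Agr2, 3 of the 10 genes lay above WT in all libraries, as did 9.59% of all genes tested. Scgb1a1 differed by 2.44 (SE 1.07, adjusted p = 0.111), Scgb3a1 by 1.80, Muc5b by 1.77, Clca1 by 1.33, Muc5ac by 1.00 and Spdef by 0.65, with adjusted p from 0.111 to 0.607. The median of the 3 secretoglobins was 2.44 and that of the 4 goblet genes tested was 1.16, where the median of all genes was -0.002. Single libraries moved these values: without WT replicate 2, Clca1 differed by 2.96, Muc5ac by 2.33 and Scgb3a1 by 3.25, and without AhR-/- replicate 2, Clca1 differed by 0.90, Muc5ac by 0.24 and Spdef by -0.06. Of 13 alternative settings, Bpifa1 passed in 8, Scgb3a2 in 6, Scgb1a1 in 3, Muc5b in 2 and Scgb3a1 in 1. Clca1 and Muc5ac passed in none of them, and Spdef in none of the 12 that could test it.

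Within these libraries, Scgb3a2 reads per 1000 of Scgb1a1 were 53.9 to 219 in AhR-/- and 19.0 to 53.1 in WT, and Agr2 reads per 1000 of Clca1 were 34.5 to 99.8 and 18.9 to 29.3. For Scgb3a2 the nearest libraries of the groups were at 53.9 and 53.1, which is no separation beyond counting error, and the Agr2 ratios in WT rest on 8 to 43 Agr2 reads. CYP1B1-/- libraries were at 34.8 to 79.9 and at 31.8 to 61.9, the latter on 6 to 35 Agr2 reads.

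No difference between CYP1B1-/- and WT after HDM passed in the 9 genes tested (0.0% of all genes). None had an unadjusted p under 0.05 (1.65% of all genes), and the likelihood ratio test, DESeq2 and voom called none. Log2 differences ranged from -0.21 for Clca1 (95% interval -2.46 to 2.04) to 1.73 for Scgb3a2 (-0.57 to 4.03), so changes of several-fold in either direction remained within the intervals. Between AhR-/- and CYP1B1-/-, none of the 9 passed either (0.00706% of all genes). Agr2 (log2 2.65, SE 0.96, adjusted p = 0.0925) and Bpifa1 (2.67, SE 0.89, adjusted p = 0.0777) were those with an unadjusted p under 0.05 (29.9% of all genes) and those without overlap, which 5.33% of all genes showed in this direction. The likelihood ratio test called 1 of the 9, DESeq2 2 and voom 3.

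A genotype effect seen in 1 state needs a test of the difference between states. For AhR-/- against WT, none of the 10 genes passed (0.0% of all genes), and Bpifa1 (log2 3.25, SE 1.09, adjusted p = 0.153), Agr2 (3.14, SE 1.20, adjusted p = 0.180) and Scgb3a2 (3.23, SE 1.45, adjusted p = 0.243) had an unadjusted p under 0.05 (18.3% of all genes). DESeq2 and the likelihood ratio test called 0 of the 10 and voom 5. For CYP1B1-/- against WT, the differences ranged from -0.78 for Muc5ac to 1.29 for Scgb3a2, none of the 10 passed and none had an unadjusted p under 0.05 (2.3% of all genes), and voom, DESeq2 and the likelihood ratio test called none (0.0% of all genes). The 2 comparisons share the WT libraries.

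Other genes of the airway secretory program were read from lists chosen by name. Between AhR-/- and WT after HDM, 9.22% of all genes rose and 12.9% fell, and no gene at all was called without AhR-/- replicate 1, 3 or 4 or without WT replicate 3 or 4, and 885 of 3125 without WT replicate 1, which holds for every list count of this comparison. Of 18 other club cell genes, 16 were tested between AhR-/- and WT after HDM, and 4 rose and none fell. They were Gsta3 (log2 3.65, adjusted p = 0.0261), Aldh1a1 (2.40, adjusted p = 0.0261), Pon1 (2.60, adjusted p = 0.0402) and Cyp2f2 (1.73, adjusted p = 0.0476), enzymes of xenobiotic, retinoid and lactone metabolism. All 16 had a positive value, with a median of 2.04 (all genes -0.002). Of the genes of goblet secretory machinery, Vamp8, a vesicle fusion protein, rose (1.47), and the glycosyltransferases Galnt7 (-1.88) and St6gal1 (-2.20) fell, among 20 tested, shares no higher than over all genes. Of 16 genes that IL-13 induces in epithelium, Alox15, a lipoxygenase, fell by 3.05 on the log2 scale.

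Of 14 IL-13 and IL-4 receptor signalling genes tested between AhR-/- and WT, 7 fell (12.9% of all genes) and none rose (9.22%), with a median of -1.24 and Tyk2 (-2.29), Stat6 (-1.13) and Ptpn6 (-2.37) the lowest in p. Several of them are also expressed by leukocytes. Of 16 airway transcription factors and Notch receptors, 7 rose (9.22% of all genes) and 2 fell (12.9%). The rises were led by Hes1 (2.67), Gata6 (2.19) and Nfib (2.08), while the receptor Notch2 (-1.75) and the factor Foxm1 (-1.78) fell. Between CYP1B1-/- and WT, and in the steady-state comparisons of either knockout with WT, no gene of these 5 lists passed.

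The same lists were compared between HDM and steady state in WT, where 19.1% of all genes rose and 19.4% fell. Among IL-13-induced genes, 10 rose and 2 fell of 20 tested, with Retnla (7.72), Alox15 (5.86) and Slc26a4 (5.64) highest and Ano1 (-3.02) and Slc5a3 (-1.08) lower. In the receptor signalling list 10 of 15 rose, led by Jak2 (3.42), Jak3 (3.69) and Irs2 (2.31). Goblet machinery had 9 higher, led by St6gal1 (3.84), Marcks (4.36) and Pigr (4.61), and 1 lower, Agr3 (-1.97), of 22. Other club cell genes had 2 higher, Kcnq1 (2.61) and Reg3g (3.61), and 6 lower, led by Gsta3 (-3.50), Aldh1a1 (-2.15) and Cyp4b1 (-3.27), of 17. Of 18 airway transcription factors and Notch receptors, 5 rose, led by Foxm1 (3.52), Ehf (2.19) and the receptor Notch2 (1.55). The 8 that fell were led by Hes1 (-4.19), Nfib (-2.32) and Gata6 (-2.29). In AhR-/- the same club list had 6 higher (10.6% of all genes), Lypd2 (3.60), Reg3g (5.64), Kcnq1 (2.59), Cldn10 (1.53), Bpifb1 (3.91) and Chad (2.57), and none lower (10.1%). In CYP1B1-/- it had 2 higher (15.5%), Kcnq1 (2.26) and Reg3g (3.76), and 3 lower (17.9%), Gsta3 (-3.02), Cyp4b1 (-3.47) and Aldh1a1 (-1.31).

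Markers of other cell types moved with these groups. The summed CPM of 27 hematopoietic markers was 273 to 626 at steady state and, after HDM, 2181 to 6912 in WT, 306.5 to 1633 in AhR-/- and 430 to 6689 in CYP1B1-/-. The sort was for CD45- cells, yet Ptprc, which encodes CD45, was counted at 210 to 638 CPM in WT after HDM. Of 26 hematopoietic markers tested, 6 fell (12.9% of all genes) and none rose (9.22%) in AhR-/- against WT, with a median of -1.83. They were Itgam (-2.51), Coro1a (-3.52), Tyrobp (-2.62), Lcp1 (-2.56), Laptm5 (-2.93) and Itgb2 (-2.62). Alveolar type 1 markers summed to 26930 to 40650 CPM at steady state and to 768 to 28090 after HDM, and 3 of 12 rose in AhR-/- against WT with none lower, Akap5 (2.11), Cldn18 (1.96) and Igfbp2 (2.42). Ciliated cell markers summed to 1893 to 5635 and 230 to 2618 CPM, and 2 of 12 rose, Dynlrb2 (2.28) and Cfap126 (1.17). Alveolar type 2 markers summed to 1159 to 6764 CPM at steady state and to 5975 to 81210 after HDM, and none of 12 passed in either direction between AhR-/- and WT. Neuroendocrine markers summed after HDM to 39.7 to 85.4 CPM in AhR-/-, 8.98 to 24.1 in WT and 8.76 to 52.8 in CYP1B1-/-. Mesenchymal, basal and endothelial sums overlapped between AhR-/- and WT after HDM. Over the 12 HDM libraries, the Pearson correlation of log2 CPM with the hematopoietic sum was -0.685 for Scgb1a1, -0.792 for Scgb3a2, -0.80 for Agr2, -0.641 for Clca1, -0.58 for Muc5ac, -0.578 for Foxa3 and 0.071 for Spdef, with Scgb3a1, Muc5b and Bpifa1 between -0.786 and -0.729, across libraries that differed in depth and in all the marker sums above. Other sums had high correlations too. Values ran from 0.459 (Foxa3) to 0.762 (Scgb1a1) with alveolar type 2 markers and from -0.211 (Spdef) to 0.847 (Bpifa1) with alveolar type 1 markers. They ran from -0.286 (Spdef) to 0.813 (Bpifa1) with ciliated cell markers and from 0.293 (Foxa3) to 0.716 (Scgb3a2) with pan-epithelial genes. The part of cell makeup in the results above was not tested.

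**Figure D3:**
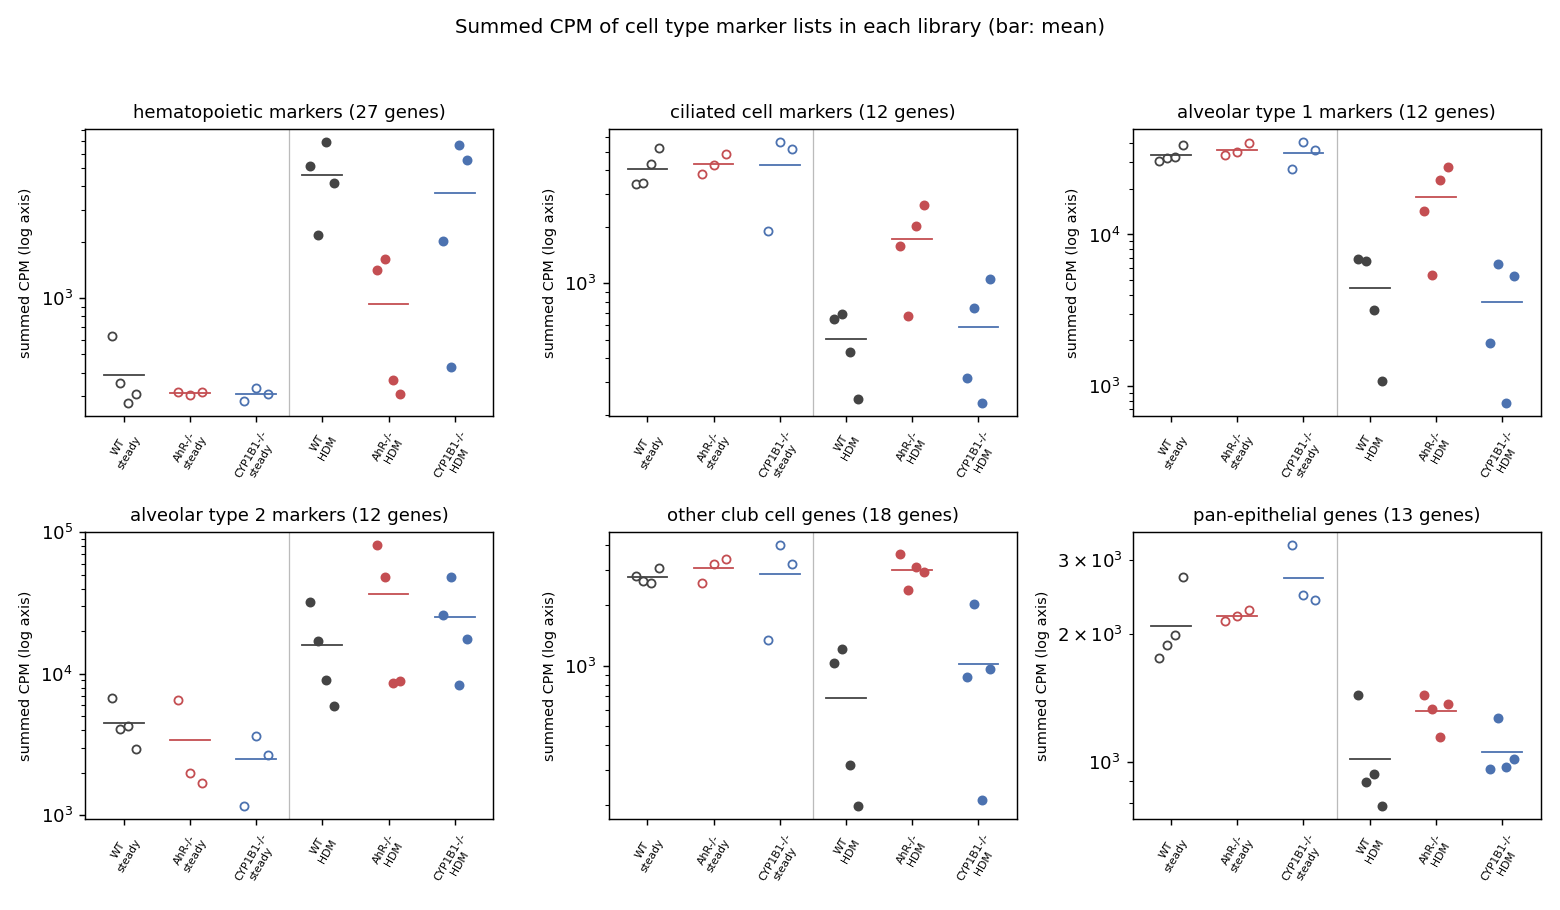
Summed CPM of marker lists in each library on a logarithmic axis, with bars at group means. Hematopoietic markers were at 273 to 626 CPM at steady state and at 2181 to 6912 CPM in WT after HDM, and alveolar type 1 markers were lower after HDM than at steady state in all libraries of each genotype.

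For Scgb1a1, Scgb3a2, Muc5b, Clca1 and Agr2, the most similar genes were found by Pearson correlation of log2 CPM over libraries of 1 state. Over the 12 HDM libraries, Scgb1a1 was followed by Lypd2 (0.977), Reg3g (0.967) and Scgb3a1 (0.965), among 10212 genes of at least 4 CPM. Clca1 was followed by the trefoil factor Tff2 (0.952), Muc5ac (0.951) and Bpifb1 (0.936), Muc5b by Chad (0.971), Lypd2 (0.934) and Slc4a3 (0.922), Agr2 by Retreg2 (0.976), Slc4a3 (0.972) and Bpifb1 (0.965), and Scgb3a2 by Pam (0.971), Irx2 (0.969) and Arfgef3 (0.969). Over the HDM libraries, Scgb1a1 had a correlation of 0.907 with Clca1, 0.88 with Muc5ac, 0.689 with Foxa3 and 0.268 with Spdef. Over the 10 steady-state libraries, its correlation with Muc5ac was -0.89, and -0.549 without CYP1B1-/- replicate 2, a value computed after seeing the data. Over the 10 steady-state libraries, Scgb1a1 was followed by Cyp2f2 (0.978), Mgst1 (0.972) and Scgb3a2 (0.970), and Scgb3a2 by Gsta4 (0.979), Mgst1 (0.973) and Cyp2f2 (0.973). Without CYP1B1-/- replicate 2, the library lowest in both secretoglobins, these correlations were 0.875 to 0.947. Clca1, Agr2 and Muc5b were too low at steady state for their nearest genes to be named.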

How the data were processed

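RNA of sorted ECs had been amplified by template switching and sequenced as 22 libraries. The authors used bbduk for trimming, GSNAP for alignment to mm10 and featureCounts 2.0.0 with Ensembl annotation for counting. The deposited values are raw counts per gene, 1 column per library in 2 tables, 1 for each state; strand and multimapping settings were not given in the sources used here. Groups came from the sample labels. Of 54373 genes listed, 54061 were matched to GENCODE M21, and 21716 protein-coding genes were kept.

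Counts were tested with edgeR 4.0.16 (R 4.3.3), using TMM normalization, filterByExpr (minimum count 10, minimum total 15) and the robust quasi-likelihood test. The 3 genotypes of a state shared a fit (15540 genes at steady state, 14156 after HDM). Comparisons of states and differences between effects came from a fit of all 22 libraries (16629 genes). P-values were Benjamini-Hochberg adjusted over all genes tested, with a threshold of 0.05, and SEs were taken as the absolute log2 fold change over the root of the F statistic. The 95% intervals of log2 differences used normal quantiles of these SEs, so they are narrower than the quasi-likelihood test implies. DESeq2 1.42.0 and limma 3.58.1 (voom) were alternatives. Scripts were tested on simulated counts with known differences and the same spread for every gene, which checks the code and not the error rates in these libraries. All 10 genes were named. Of each list counted in the text, genes past the threshold were named if at most 6, otherwise the 3 of lowest p in each direction. Where none passed, the rule named the 2 of lowest p, which are not printed. The 10 genes and the lists were chosen with earlier results of these data known. None of the 10 genes shares 50-base stretches or exons with another gene. Intervals on shares cover counting error only, since reads carried no molecular identifiers.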

Additional observations from a re-analysis of the deposited data

Results flagged for a closer look

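In the WT steady-state group, Scgb1a1 was far lower in replicate 4 (1040 CPM) than in the other 3 libraries (2267 to 2521 CPM). Its gap to the nearest library was 0.88 of the range of the group on the log2 scale, above Dixon's 95% critical value for 4 samples. This was the 1 group so marked of 40 groups of the 10 genes examined, and chance marks about 1 in 20.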

How the results depend on the processing

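Of 17 called differences of the 10 genes, 7 kept their call in all refits, and of 308 refits 248 kept it, 60 lost it and none turned it. The call of Agr2 between AhR-/- and WT after HDM was lost with the replicate block (3.73, adjusted p = 0.058) and without both AhR-/- libraries holding Y-linked reads, over a range of 2.74 to 4.18. Same-numbered libraries did not all deviate together (correlations of -0.564 to 0.748 over 12 pairs after HDM and -0.026 to 0.226 over 8 pairs at steady state, 4 in either state over 0.1). Such values cannot tell whether libraries of the same number were handled together, so pairing was neither shown nor excluded. The replicate block left 1 gene of 3125 between AhR-/- and WT after HDM.

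Genes called between AhR-/- and WT at steady state numbered 0, and 11 with the likelihood ratio test, 12 with DESeq2, 10 with voom, 1 with upper-quartile normalization and 5 with only the 2 groups compared. Between CYP1B1-/- and WT at steady state 2 became 5 with DESeq2, 7 with voom and 0 with the replicate block or only the 2 groups. Between the knockouts at steady state 1 became 9, 11 and 10 with the likelihood ratio test, DESeq2 and voom, 2 with pan-epithelial library sizes, and 0 with the replicate block or only the 2 groups. After HDM, the 3125 between AhR-/- and WT became 6669 with voom, 1802 with no filter and 0 without both libraries with Y-linked reads. Between CYP1B1-/- and WT after HDM 0 became 1 with the likelihood ratio test and 1 with DESeq2. Between the knockouts after HDM 1 became 2458, 2744 and 4304 with the likelihood ratio test, DESeq2 and voom, and 0 with the filter dropped, with 10 or more counts required of every library, with both libraries left out or only the 2 groups.

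Of the 10 genes, the 1 called between AhR-/- and WT after HDM became 4 with the likelihood ratio test, DESeq2 or only the 2 groups, 6 with voom, 3 with no filter, 2 with RLE, pan-epithelial library sizes, no robust estimation or the dominant predicted genes left out, and 0 with at least 10 counts in every library, where Agr2 was not testable, with the replicate block or with both libraries left out. Between the knockouts after HDM 0 became 1, 2 and 3 with the likelihood ratio test, DESeq2 and voom. Against steady state, the 5 in WT became 8 with voom, 2 with upper-quartile normalization, 3 with no filter and 1 with at least 10 counts, which left 2 of 6 in AhR-/- and 1 of 5 in CYP1B1-/-. The difference between states of AhR-/- against WT went from 0 to 5 with voom. Leaving out 1 library gave 0 to 1 genes between AhR-/- and WT, 0 to 4 between CYP1B1-/- and WT and 0 to 7 between the knockouts at steady state, and 0 to 4134 between AhR-/- and WT and 0 to 3095 between the knockouts after HDM. Of the 10 genes it gave 0 to 3, 0 to 2, 3 to 4 and 1 to 5 between AhR-/- and WT and between the knockouts after HDM, and against steady state in WT and CYP1B1-/-. The causes were not tested.

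Of 2108 refits of single genes, 145 turned sign, none of them for a called difference. With limma voom with sample weights, the sign turned for Agr2 -0.12 and Foxa3 -0.15 in AhR-/- against WT, steady state, for Muc5ac -0.84 in CYP1B1-/- against WT, steady state, for Scgb1a1 -0.30, Scgb3a2 -0.22, Muc5ac 0.51 in AhR-/- against CYP1B1-/-, steady state, for Spdef -0.29 in AhR-/- against WT, HDM, for Muc5ac -0.61, Agr2 -0.76, Spdef -0.89, Muc5b -0.15, Bpifa1 0.17 in CYP1B1-/- against WT, HDM, for Scgb3a1 -0.97 in HDM against steady state, WT, for Scgb1a1 -0.35 in HDM against steady state, AhR-/-, for Scgb3a2 -1.02 in HDM against steady state, CYP1B1-/-, for Muc5ac 0.75 and Bpifa1 0.21 in difference between states of CYP1B1-/- against WT. With upper-quartile normalization, the sign turned for Agr2 -0.01 in AhR-/- against WT, steady state, for Bpifa1 0.03 in CYP1B1-/- against WT, HDM, for Bpifa1 0.21 in difference between states of CYP1B1-/- against WT. With library sizes from pan-epithelial genes, the sign turned for Agr2 -0.06 and Foxa3 -0.05 in AhR-/- against WT, steady state, for Scgb1a1 -0.01 in CYP1B1-/- against WT, steady state, for Muc5ac -0.23 in CYP1B1-/- against WT, HDM, for Foxa3 0.03 in HDM against steady state, WT, for Foxa3 0.40 in HDM against steady state, AhR-/-, for Scgb1a1 0.36 and Foxa3 0.39 in HDM against steady state, CYP1B1-/-, for Clca1 -0.02 in difference between states of AhR-/- against WT, for Bpifa1 0.06 in difference between states of CYP1B1-/- against WT. With replicate block, the sign turned for Scgb1a1 -0.02 and Scgb3a2 -0.08 in AhR-/- against WT, steady state, for Scgb3a1 -0.16 and Scgb3a2 -0.08 in CYP1B1-/- against WT, steady state, for Scgb1a1 -0.17, Scgb3a2 0.00, Bpifa1 0.03 in AhR-/- against CYP1B1-/-, steady state, for Muc5ac -0.14 and Bpifa1 0.00 in CYP1B1-/- against WT, HDM, for Scgb3a2 -1.07 in HDM against steady state, CYP1B1-/-, for Spdef -0.43 in difference between states of AhR-/- against WT, for Scgb1a1 -0.14, Scgb3a1 -0.27, Clca1 -0.04, Spdef -0.47 in difference between states of CYP1B1-/- against WT. With edgeR likelihood ratio test, the sign turned for Foxa3 -0.09 in difference between states of CYP1B1-/- against WT. With DESeq2, the sign turned for Bpifa1 0.04 in difference between states of CYP1B1-/- against WT. With RLE normalization, the sign turned for Bpifa1 0.03 in difference between states of CYP1B1-/- against WT. With no filter, the sign turned for Bpifa1 0.06 in difference between states of CYP1B1-/- against WT. With at least 10 counts in every library, the sign turned for Bpifa1 0.14 in difference between states of CYP1B1-/- against WT. With dominant predicted genes left out, the sign turned for Bpifa1 0.07 in difference between states of CYP1B1-/- against WT. With both HDM AhR-/- libraries with Y-linked reads left out, the sign turned for Foxa3 0.06 in HDM against steady state, AhR-/-. Leaving out 1 library turned the sign within these log2 ranges: AhR-/- against WT, steady state (Clca1 -0.03 to 1.49, Agr2 -0.41 to 0.55, Foxa3 -0.19 to 0.23, Scgb3a1 -0.63 to 0.07), AhR-/- against CYP1B1-/-, steady state (Scgb1a1 -0.43 to 0.54, Scgb3a2 -0.46 to 0.87, Muc5ac -1.63 to 0.61, Scgb3a1 -1.27 to 0.54, Foxa3 -0.16 to 0.57, Bpifa1 -0.86 to 0.57), CYP1B1-/- against WT, steady state (Muc5ac -0.93 to 1.31, Bpifa1 -1.14 to 0.29, Scgb1a1 -0.23 to 0.73, Scgb3a1 -0.84 to 0.98, Scgb3a2 -0.55 to 0.78, Foxa3 -0.5 to 0.22), AhR-/- against WT, HDM (Spdef -0.06 to 0.96), AhR-/- against CYP1B1-/-, HDM (Spdef -0.48 to 0.81), CYP1B1-/- against WT, HDM (Muc5ac -1.1 to 1.4, Scgb1a1 -0.03 to 2.1, Scgb3a1 -0.39 to 2.19, Scgb3a2 -0.01 to 2.82, Agr2 -0.8 to 1.51, Spdef -0.18 to 0.8, Muc5b -0.31 to 1.83, Clca1 -1.49 to 1.39, Bpifa1 -0.82 to 0.97), difference between states of AhR-/- against WT (Clca1 -0.13 to 1.77, Spdef -0.26 to 0.88), difference between states of CYP1B1-/- against WT (Spdef -0.63 to 0.46, Bpifa1 -0.65 to 1.01, Scgb1a1 -0.36 to 1.75, Scgb3a1 -0.98 to 1.55, Scgb3a2 -0.37 to 2.42, Clca1 -1.19 to 1.66, Agr2 -0.24 to 2, Foxa3 -0.69 to 0.48, Muc5b -1.2 to 0.94, Muc5ac -1.95 to 0.99), HDM against steady state, CYP1B1-/- (Scgb3a2 -1.34 to 1.02).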
